A study of Rattus norvegicus with 4 samples.

Results

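The integrated stress response and the genes of amino acid supply that it controls were followed in day 4 rat embryoid bodies, the aggregates that pluripotent cells form when they begin to differentiate. The set holds 36 listed genes, chosen by symbol from textbook members of the pathway. Of these, 35 symbols were found among the 32753 genes of the deposited tables and 34 passed the filter on low values (at least 1 RPKM in 2 or more libraries). RPKM is a read number divided by transcript length and by the size of its library. Nupr1, which encodes a stress-induced chromatin protein, matched no symbol, so its expression is not analysed here. Aldh18a1, which encodes an enzyme of proline synthesis, has entries at 2 loci of chromosome 1 and did not pass. One entry was between 0.0134 and 0.146 RPKM in the 4 libraries and the other was listed at 0 in each. The sources used here do not say how reads were divided between the 2 entries.

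Rat embryonic stem cells of the strain labelled DASD, either wild-type (WT) or Kcnh2-/-, gave 2 libraries per genotype. Kcnh2 encodes the potassium channel ERG1, and the comparison asks how its loss alters expression on day 4 of differentiation. All libraries came from cells aggregated as hanging drops with CHIR9902 (0.75 µM), PD0325901 (0.1 µM) and Y27632 (10 µM), the first and second of which were kept on during attachment to laminin. The labels do not say whether replicates came from separate cultures or clones, nor which part of Kcnh2 was altered, so p-values measure only the spread between these libraries. Kcnh2 itself was at 2.61 and 1.45 RPKM in the WT libraries and 0.108 and 0.504 in the Kcnh2-/- libraries.

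The integrated stress response starts at kinases that phosphorylate the translation initiation factor eIF2. Phosphorylated eIF2 lowers translation in general but raises translation of Atf4, whose product switches on amino acid transporters, enzymes of serine and asparagine synthesis and tRNA synthetases. Stress of the endoplasmic reticulum (ER) engages one of these kinases, PERK, and also the sensors IRE1 and ATF6, which through XBP1 and ATF6 raise ER chaperones. The RNA of Atf4 reports its activity only in part, since the control is largely on translation.

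Promoters of known targets of both branches hold binding sites for these factors. RefSeq promoter windows (GRCr8, 250 bases before to 50 after the annotated start) were found for 30 of the 36 genes, and none for Ern1, Pdia6, Slc7a3, Atf3, Aldh18a1 and Atf6. The windows were searched on both strands for the ATF4 and C/EBP element TGATGNAA, for the ER stress element (CCAAT and CCACG with 9 bases between) and for the XBP1 element TGACGTGG. TGATGNAA was in 6 of the 30 (Chac1, Herpud1, Nupr1, Pycr1, Slc7a1 and Trib3) and in 3.82% of 27457 rat promoter windows. The ER stress element was in 4 of the 30 (Calr, Hsp90b1, Hspa5 and Xbp1) and in 0.0765% of all windows, and TGACGTGG was in 0 of the 30 and in 0.637% of all. The searched elements did not overlap each other in the windows shown. In the 2 examples of each branch that follow, capitals mark the matched element, or for the ER stress element its 2 parts.
Trib3 (chr3:161275484-161275783, minus strand): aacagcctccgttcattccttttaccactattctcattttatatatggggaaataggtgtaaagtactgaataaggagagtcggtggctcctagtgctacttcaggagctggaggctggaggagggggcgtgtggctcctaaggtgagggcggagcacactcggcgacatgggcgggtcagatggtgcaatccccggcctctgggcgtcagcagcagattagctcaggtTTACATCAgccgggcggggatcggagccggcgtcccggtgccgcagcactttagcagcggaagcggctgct
Slc7a1 (chr12:11664238-11664537, plus strand): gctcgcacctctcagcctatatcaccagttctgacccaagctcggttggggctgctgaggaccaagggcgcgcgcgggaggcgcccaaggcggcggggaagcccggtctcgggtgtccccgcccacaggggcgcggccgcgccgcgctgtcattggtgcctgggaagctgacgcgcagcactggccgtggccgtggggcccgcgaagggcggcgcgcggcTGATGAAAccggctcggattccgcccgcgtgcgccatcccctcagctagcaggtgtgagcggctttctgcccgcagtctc
Hspa5 (chr3:38452766-38453065, plus strand): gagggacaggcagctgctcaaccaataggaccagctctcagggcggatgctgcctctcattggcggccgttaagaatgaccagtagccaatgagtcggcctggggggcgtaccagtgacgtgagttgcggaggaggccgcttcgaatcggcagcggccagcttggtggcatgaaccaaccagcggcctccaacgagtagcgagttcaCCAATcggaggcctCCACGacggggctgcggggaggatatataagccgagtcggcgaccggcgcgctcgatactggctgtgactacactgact
Hsp90b1 (chr7:23012244-23012543, minus strand): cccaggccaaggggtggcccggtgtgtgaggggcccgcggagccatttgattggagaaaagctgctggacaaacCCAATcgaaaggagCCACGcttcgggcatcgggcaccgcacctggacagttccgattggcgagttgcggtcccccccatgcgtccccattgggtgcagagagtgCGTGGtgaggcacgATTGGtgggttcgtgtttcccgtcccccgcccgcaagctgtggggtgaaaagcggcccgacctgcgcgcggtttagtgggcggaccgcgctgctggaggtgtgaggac

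The matches lie at positions -21 to -14 in Trib3 and -30 to -23 in Slc7a1, counted from the annotated start. Hspa5 has its match at -43 to -25, and Hsp90b1 has 2, at -176 to -158 and -72 to -54. The Trib3 match and the latter of Hsp90b1 are on the opposite strand, so the capitals there spell the reverse complement. A match describes the letters only.

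No member passed the test between Kcnh2-/- and WT. In limma on log2(RPKM + 1), with Benjamini-Hochberg adjustment over all 12355 genes tested and a threshold of 0.05, 0 of the 34 members were called, against 0.113% of all genes (14 genes, 0.0324% higher and 0.0809% lower in Kcnh2-/-). The 4 higher and 10 lower genes became 1 and 10 under median-of-ratios scaling and 8 and 11 under quantile normalization. Of the alternative fits run, the one with a replicate block over protein-coding genes alone called members, 2 of them, both higher (Cebpb and Slc7a3, limma adjusted p = 0.0120 and 0.00349). That fit called 0.756% of its 10850 genes, 0.525% higher and 0.23% lower. At an unadjusted limma p under 0.05 there were 3 members (Cebpb, Slc7a3 and Psat1), against 3.38% of all genes. The adjusted limma p was 0.502 for Cebpb and between 0.980 and 0.998 for every other member tested. With 2 libraries against 2, the smallest p of an exact permutation test is 0.33. In 9 of the 34 members both Kcnh2-/- libraries stood above both WT libraries, a pattern found in 16.7% of all genes tested. In 1 member, Atf6, both stood below, against 15.3% of all. Every tested member was at 2.04 RPKM or more in each library, so none entered through 1 group alone.

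**Figure D1:**
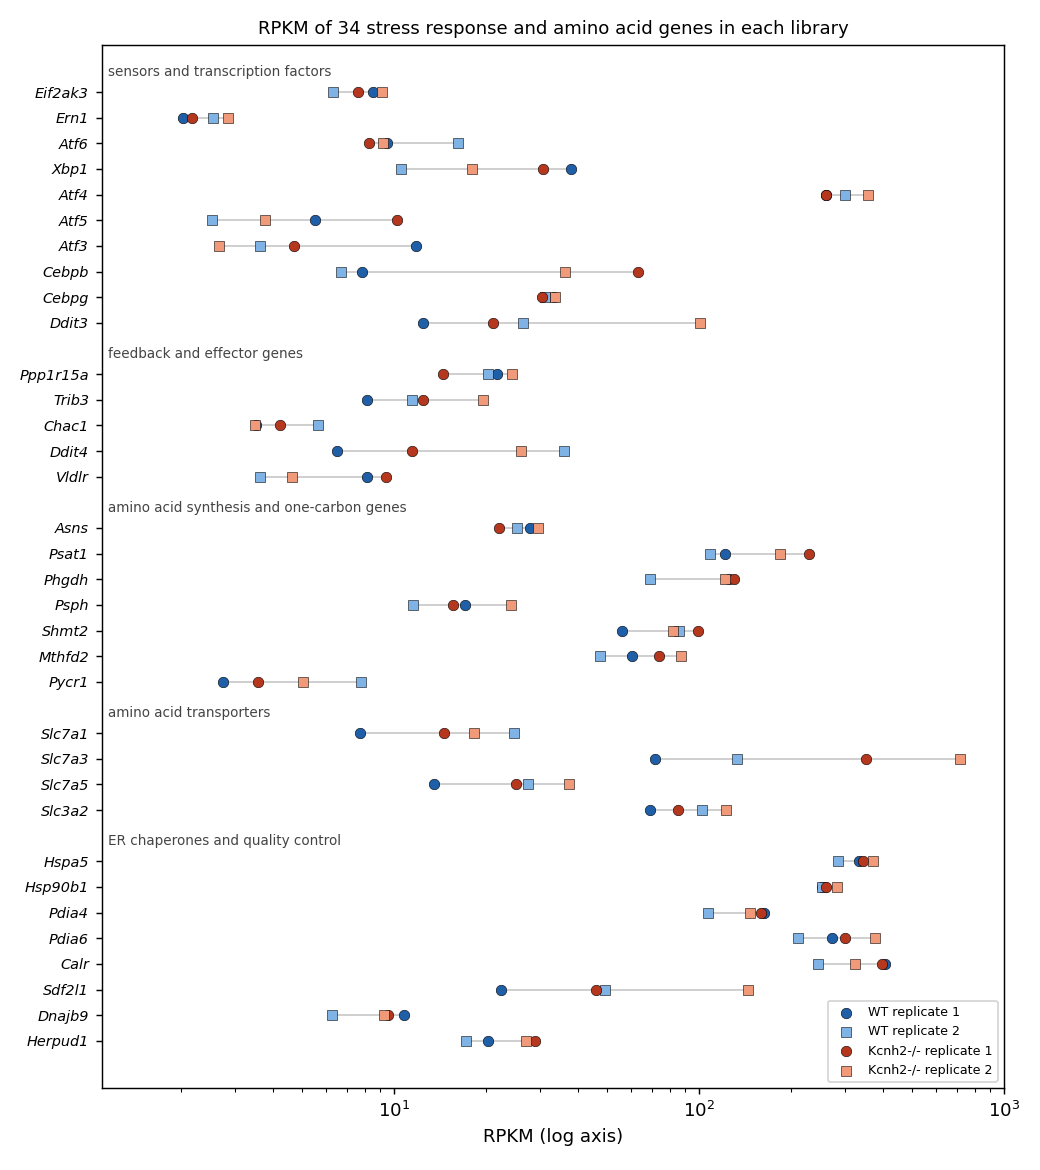
RPKM (log axis) of the 34 tested members, 1 row per gene grouped by role, with 1 point per library (circles, replicate 1; squares, replicate 2; blue, WT; red, Kcnh2-/-) and a grey line over their range. Cebpb and Slc7a3 show the widest gap between the groups, while Cebpg and Hsp90b1 hardly spread.

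The library totals split by replicate number and not by genotype. The sum of RPKM was 7.95e+07 in WT and 1.09e+08 in Kcnh2-/- for replicate 1, and 1.17e+07 and 8.93e+06 for replicate 2. Protein-coding genes took 0.538% to 9.69% of the sum. The labels name no batch, and the absolute read depth is unknown. For this reason each member is given by library, and differences within a replicate number are given for those that matter.

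Among the ER sensors, Eif2ak3, which encodes PERK, was at 8.54 and 6.29 RPKM in the WT libraries and 7.61 and 9.11 in the Kcnh2-/- libraries. Ern1, which encodes IRE1, was low at 2.04 and 2.54 RPKM in the WT libraries and 2.17 and 2.86 in the Kcnh2-/- libraries. The groups overlapped for both genes. Atf6 was at 9.46 and 16.2 RPKM in the WT libraries and 8.29 and 9.20 in the Kcnh2-/- libraries, a log2 difference of -0.46 ± 0.36 (SE), and -0.10 without WT replicate 2. Atf6 is on chromosome 13, which held 244 protein-coding genes with a mean of 5 RPKM or more. Their median log2 ratio (Kcnh2-/- over WT), less the autosomal median, was -0.076 within replicate 1 and -0.46 within replicate 2. On that scale Atf6 was at -0.21 and -0.89, and ranked 151 and 190 among the 244 from the highest. Xbp1 was at 38.1 and 10.5 against 30.7 and 17.97 RPKM, so that the spread between WT libraries was larger than any difference between groups.

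Atf4 was the most abundant of the transcription factors in every library. It was at 259.7 and 299.8 RPKM in the WT libraries and 260.6 and 357 in the Kcnh2-/- libraries (log2 difference 0.13 ± 0.31, SE, and -0.17 under quantile normalization). Its dimer partner Cebpg was the steadiest member, at 33.4 and 31.3 RPKM in the WT libraries and 30.6 and 33.8 in the Kcnh2-/- libraries. Neither gene separated the groups.

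Cebpb, which encodes another dimer partner of ATF4, had the largest difference of the set. It was at 7.85 and 6.71 RPKM in the WT libraries and 62.9 and 36.3 in the Kcnh2-/- libraries, so both Kcnh2-/- libraries lay far above both WT libraries. The log2 difference was 2.56 ± 0.36 (SE; limma adjusted p = 0.502), and the ratio of RPKM was 8.02 within replicate 1 and 5.41 within replicate 2. Cebpb is on chromosome 3 (rn6, 164424514 to 164425910). Among the 596 protein-coding genes of that chromosome with a mean of 5 RPKM or more, its ratio ranked 2 within replicate 1 and 1 within replicate 2. The median log2 ratio of those genes, less the median of autosomes, was 0.0238 within replicate 1 and -0.40 within replicate 2.

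Ddit3, which encodes the stress factor CHOP, was at 12.4 and 26.4 RPKM in the WT libraries and 21.1 and 101 in the Kcnh2-/- libraries. A single library, Kcnh2-/- replicate 2, stood apart, and the groups overlapped (log2 difference 1.31 ± 0.84, SE). Without that library the log2 difference was 0.20. Ddit3 shares its listed locus on chromosome 7 with Mars, the methionyl-tRNA synthetase gene, which was at 105 and 114 against 143 and 166 RPKM. The sources used here do not say how reads were divided between them. Atf3, an early stress factor, was at 11.8 and 3.64 RPKM in the WT libraries and 4.69 and 2.66 in the Kcnh2-/- libraries. Atf5, a factor translated under the same control as Atf4, was at 5.52 and 2.53 against 10.3 and 3.76 RPKM. For Atf3 and Atf5 the groups overlapped, and the log2 difference of Atf3 ran from -1.49 to -0.024 with a library left out.

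The feedback and effector genes had fitted differences of both signs. Trib3, a pseudokinase that restrains ATF4, was at 8.13 and 11.5 RPKM in the WT libraries and 12.4 and 19.6 in the Kcnh2-/- libraries, and the groups did not overlap (log2 difference 0.64 ± 0.36, SE, and 0.33 to 0.95 with a library left out). Chac1, a glutathione-degrading enzyme and one of the most responsive ATF4 targets, was at 3.54 and 5.65 against 4.22 and 3.51 RPKM. Ppp1r15a, the stress-induced subunit of the eIF2 phosphatase, was at 21.8 and 20.4 against 14.4 and 24.3 RPKM. Both of these overlapped between groups, with fitted log2 differences of -0.18 ± 0.36 and -0.16 ± 0.34 (SE). Ddit4, an inhibitor of mTORC1 signalling, was at 6.51 and 36.2 against 11.4 and 26.0 RPKM, and split by replicate number, with replicate 2 higher. Vldlr, a lipoprotein receptor gene induced through PERK and ATF4, was at 8.17 and 3.64 against 9.42 and 4.63 RPKM. It also split by replicate number, but with replicate 1 higher.

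In the amino acid synthesis genes, the serine pathway was uneven. Psat1, its second enzyme, stood at 122 and 108 RPKM in the WT libraries and 229 and 184 in the Kcnh2-/- libraries. Both Kcnh2-/- libraries were higher than both WT libraries, and the log2 difference was 0.83 ± 0.27 (SE; limma adjusted p = 0.980). Phgdh, the first enzyme, was at 125 and 69.1 against 130.2 and 122 RPKM, so that WT replicate 2 alone was low. Psph, the last enzyme, was at 17.1 and 11.6 against 15.6 and 24.1 RPKM, with overlapping groups. Within replicate 1, the log2 differences of Psat1, Phgdh and Psph were 0.905, 0.0571 and -0.13.

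Asns, the asparagine synthetase gene that defines the amino acid response, was at 27.9 and 25.4 RPKM in the WT libraries and 22.0 and 29.6 in the Kcnh2-/- libraries. The log2 difference was -0.058 ± 0.28 (SE), with WT between the Kcnh2-/- libraries. Among the mitochondrial one-carbon enzymes, Mthfd2 was at 60.2 and 47.4 against 73.7 and 87.3 RPKM, and the groups did not overlap (log2 difference 0.58 ± 0.27, SE). Shmt2 was at 55.9 and 85.8 against 99.1 and 81.9 RPKM and overlapped. Pycr1, the last enzyme of proline synthesis, was at 2.74 and 7.80 against 3.59 and 5.01 RPKM, with WT spread on both sides of Kcnh2-/-.

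The cationic amino acid transporter gene Slc7a3 (X, 70972764 to 70978952) differed most among the transporters. It was at 71.6 and 133 RPKM in the WT libraries and 352 and 714 in the Kcnh2-/- libraries, so every Kcnh2-/- value was above every WT value. The log2 difference was 2.35 ± 0.51 (SE; limma adjusted p = 0.980), and the ratio of RPKM was 4.92 within replicate 1 and 5.37 within replicate 2. Its relative Slc7a1 was at 7.74 and 24.8 RPKM in the WT libraries and 14.6 and 18.2 in the Kcnh2-/- libraries, inside the WT range. Slc7a5, the light chain of the large neutral amino acid exchanger, was at 13.6 and 27.5 against 25.1 and 37.5 RPKM. Its heavy chain partner Slc3a2 was at 69.0 and 102 against 85.4 and 123 RPKM. Both chains overlapped between groups and were higher in replicate 2 of each.

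Slc7a3 lies on a chromosome that stood higher as a whole. The 267 protein-coding genes of X had a median log2 ratio (Kcnh2-/- over WT), after subtraction of the autosomal median, of 0.79 within replicate 1 and 0.71 within replicate 2. The gene also lies in the stretch of X from 60 to 80 Mb, where 52 genes had medians of 0.80 within replicate 1 and 2.11 within replicate 2. On the same scale Slc7a3 was at 2.28 and 2.35. It therefore stood above the median of that stretch in replicate 1 and near it in replicate 2. Among the X-linked genes it ranked 16 within replicate 1 and 23 within replicate 2. On its sides among these genes, Snx12 was at 0.85 and 2.62, and the germ cell gene Tex11 was at 4.16 and 4.76.

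**Figure D2:**
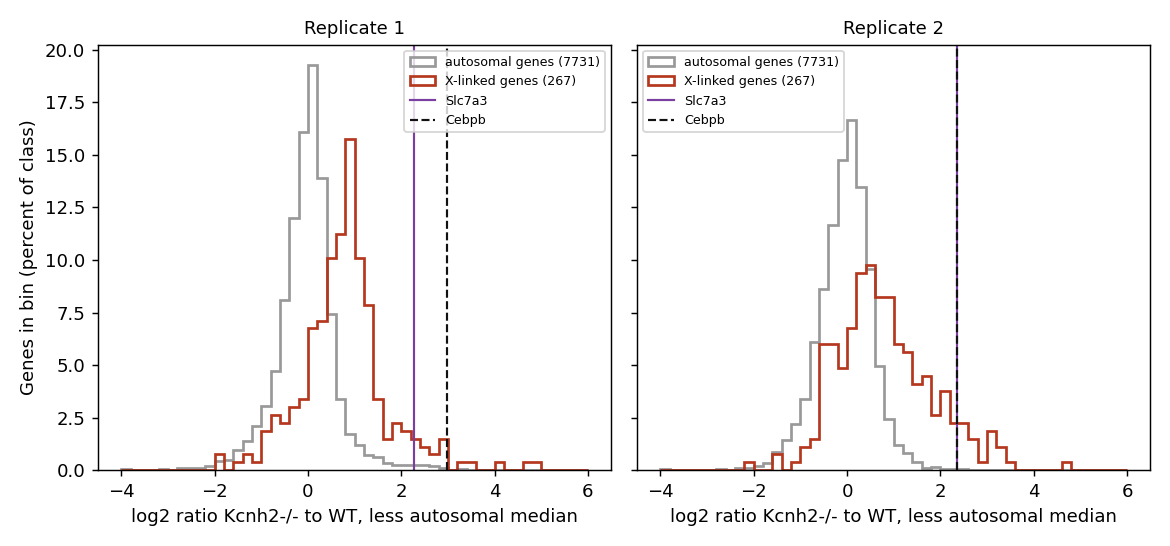
Distribution of log2 ratios (Kcnh2-/- over WT, autosomal median subtracted) for 7731 autosomal (grey) and 267 X-linked (red) protein-coding genes within replicate 1 (left) and replicate 2 (right), as percent of each class per bin. Vertical lines mark Slc7a3 (solid, 2.28 and 2.35) and Cebpb (dashed, 2.99 and 2.36), which nearly coincide in replicate 2.

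The ER chaperones were among the most abundant members and differed little between the groups in replicate 1. Hspa5, which encodes the chaperone BiP, was at 335 and 285 RPKM in the WT libraries and 345 and 371 in the Kcnh2-/- libraries (log2 difference 0.21 ± 0.28, SE). Hsp90b1, which encodes GRP94, was at 254 and 252 against 259.8 and 283 RPKM (0.0998 ± 0.26). In both genes the groups did not overlap, but the differences were smaller than their SE and turned negative under quantile normalization (-0.11 and -0.21). Pdia4, a protein disulfide isomerase gene, stood at 163 and 107 against 159.8 and 147 RPKM, while Pdia6, another, stood at 272 and 211 against 301 and 377 RPKM. The lectin chaperone gene Calr stood at 407 and 245 against 398 and 325 RPKM. In Pdia4, Pdia6, Calr and Hspa5 the lowest library was WT replicate 2.

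Herpud1, a part of the ER degradation machinery, was at 20.3 and 17.2 RPKM in the WT libraries and 29.0 and 27.1 in the Kcnh2-/- libraries. These groups did not overlap, and the log2 difference was 0.56 ± 0.25 (SE; limma adjusted p = 0.980). Sdf2l1, a cofactor of BiP, was at 22.5 and 49.3 against 46.0 and 145 RPKM, and the groups overlapped. Its log2 difference was 1.27 ± 0.69 (SE), and 0.45 without Kcnh2-/- replicate 2. Dnajb9, an XBP1 target that acts on BiP, stood at 10.8 and 6.26 against 9.53 and 9.28 RPKM, inside the WT range.

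**Figure D3:**
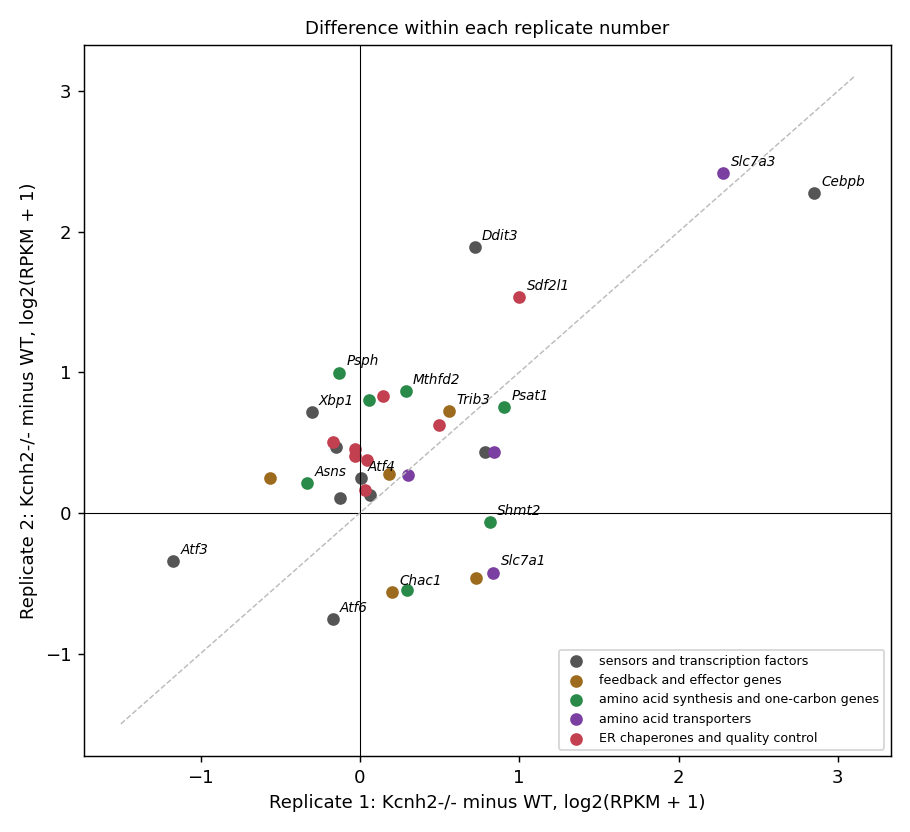
Difference in log2(RPKM + 1), Kcnh2-/- minus WT, of the 34 tested members within replicate 1 (x axis) and replicate 2 (y axis), coloured by role, with a dashed line where both are equal. Cebpb and Slc7a3 lie above 2 on both axes, and the 8 ER genes lie above 0 in replicate 2, although 4 of them had negative fitted differences under quantile normalization.

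Set side by side, the amino acid arm (Asns, Psat1, Phgdh, Slc7a1, Slc7a3 and Slc7a5) had a larger median difference than the ER chaperone arm (Hspa5, Hsp90b1, Pdia4 and Pdia6). The median over the arm's genes was 0.54 for amino acid supply and 0.21 for ER chaperones on the log2(RPKM + 1) scale, against 0.0052 over all genes tested. Within replicate 1 the medians were 0.84 and 0.039, and within replicate 2 they were 0.59 and 0.42. No test was made of these medians, since the genes were chosen. The ER chaperone median turned to -0.077 under quantile normalization and was 0.42 without WT replicate 1 and 0.096 without WT replicate 2. The amino acid median was 0.50 without WT replicate 1, where the arms stood close, and 0.87 without WT replicate 2. It was 0.43 without Slc7a3, an alternative added after the data were seen.

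Within a library the amino acid arm's median level was lower than that of the ER chaperone arm by a similar amount in all. The amino acid median less the ER chaperone median was -2.53 and -2.37 in WT and -2.26 and -2.24 in Kcnh2-/- on the log2 scale. The difference between the groups in this contrast of levels was 0.20, and its sign depended on a single gene. Without Slc7a3 the difference was -0.15, and restricted to the other chromosomes than 3, 13, 16, X and Y (so without Slc7a3 and Hspa5) it was -0.085. The median of 6 genes falls in a gap between the abundant Psat1, Phgdh and Slc7a3 and the lower Asns, Slc7a1 and Slc7a5, so leaving out 1 gene shifts it. Without WT replicate 1 the difference was 0.12.

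**Figure D4:**
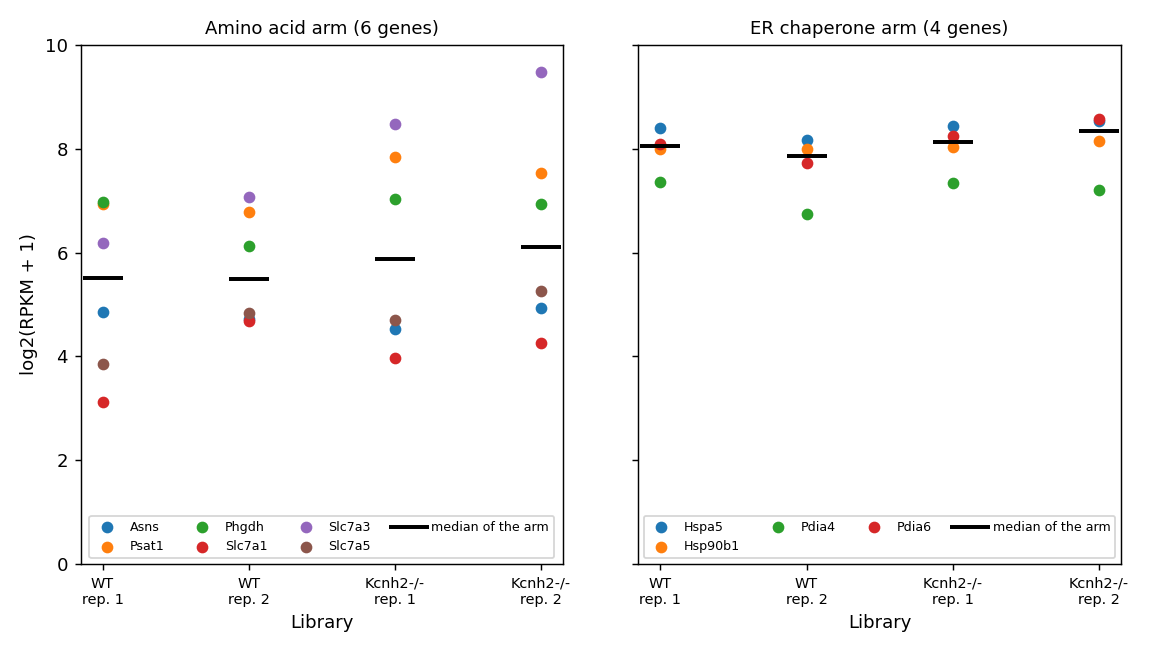
log2(RPKM + 1) of each gene of the amino acid arm (left, 6 genes) and the ER chaperone arm (right, 4 genes) in each library, with a black bar at the arm's median. The ER chaperone medians run from 7.86 to 8.34, and the amino acid medians from 5.48 to 6.10 with a gap between higher and lower genes.

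Other genes of the pathway were read from lists outside the 36. The cytosolic tRNA synthetases, many of them ATF4 targets, had positive fitted differences in 18 of 20 genes. None of the 20 passed the limma threshold, and 2 were at an unadjusted limma p under 0.05, against 3.38% of all genes. Both Kcnh2-/- libraries stood above both WT libraries in 13 of the 20, against 16.7% of all genes tested. They stood below in 0 of the 20, against 15.3% of all. Under quantile normalization both stood above in 5 of 20, against 15.0% of all genes under that scaling. The list's median difference was 0.37 (0.42 within replicate 1 and 0.41 within replicate 2), and 0.15 under quantile normalization. Yars was at 55.4 and 59.2 RPKM in the WT libraries and 95.6 and 95.0 in the Kcnh2-/- libraries (log2 difference 0.73 ± 0.23, SE). Cars was at 35.9 and 36.4 against 53.8 and 66.0 RPKM, and Kars, the most abundant, at 143 and 162 against 209.8 and 224 RPKM.

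A list of eIF2 kinases, subunits and regulators had a median difference of 0.26 over 17 genes. None of these passed the limma threshold, and 1 was at an unadjusted limma p under 0.05, against 3.38% of all genes. Groups did not overlap in 7 that were higher, or 41.2% against 16.7% of all genes, none of them a kinase gene. In 1 the Kcnh2-/- libraries were lower without overlap, or 5.88% against 15.3% of all genes. This was the kinase gene Eif2ak1, at 27.0 and 24.2 against 22.0 and 20.9 RPKM. Under quantile normalization the median was 0.072 and 5 of the 17 were higher without overlap (29.4% against 15.0% of all genes). The X-linked Eif2s3, which encodes the gamma subunit of eIF2, was at 147 and 130.4 RPKM in the WT libraries and 382 and 486 in the Kcnh2-/- libraries (log2 difference 1.63 ± 0.29, SE; limma adjusted p = 0.856). It lies in the same 60 to 80 Mb stretch of X as Slc7a3. The alpha subunit gene Eif2s1 was at 319 and 251 against 378 and 336 RPKM. The initiation factor gene Eif2a was at 59.9 and 59.5 against 91.1 and 82.5 RPKM.

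Further ATF4 targets were divided, with 11 of 19 fitted differences above 0 and 8 below and a median of 0.088. The median was 0.048 under quantile normalization, 0.013 without WT replicate 1, 0.23 without WT replicate 2 and -0.059 without Kcnh2-/- replicate 2. None passed the limma threshold, and 2 were at an unadjusted limma p under 0.05, against 3.38% of all genes. Both Kcnh2-/- libraries stood above both WT libraries in 5 of the 19 (26.3%, against 16.7% of all genes) and below in 0 (against 15.3%). Under quantile normalization these counts were 6 (31.6%, against 15.0% of all genes) and 0 (against 13.6%). Sqstm1, which encodes the autophagy receptor p62, was the most abundant of them. It was at 159 and 191 RPKM in the WT libraries and 409 and 499 in the Kcnh2-/- libraries, with groups far apart (log2 difference 1.37 ± 0.29, SE; limma adjusted p = 0.980). Stc2, a secreted glycoprotein gene, was at 3.04 and 1.65 against 7.89 and 5.24 RPKM.

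Other amino acid transporters had a median of -0.052 over 16 genes, which was -0.24 without WT replicate 1, 0.13 without WT replicate 2 and -0.097 without Kcnh2-/- replicate 2. None passed the limma threshold, and 2 were at an unadjusted limma p under 0.05, both of them lower, against 3.38% of all genes. Both Kcnh2-/- libraries stood above both WT libraries in 0 of the 16 (against 16.7% of all genes) and below in 3 (18.8%, against 15.3%). Under quantile normalization these counts were 3 (18.8%, against 15.0% of all genes) and 4 (25%, against 13.6%). Slc43a1, a neutral amino acid transporter gene, was at 4.98 and 2.32 RPKM in the WT libraries and 0.658 and 0.372 in the Kcnh2-/- libraries. Slc7a8 was at 2.60 and 2.12 against 0.694 and 0.197 RPKM. The glutamine transporter gene Slc38a2, the most abundant, was level at 73.0 and 77.9 against 69.4 and 75.9 RPKM.

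The wider ER folding, export and degradation genes had a median difference of 0.080 over 31 genes, with 23 above 0 and 8 below, against 6225 and 6130 of all genes. Under quantile normalization the median was -0.014, with 13 above 0 and 18 below, and without WT replicate 2 it was -0.026. With another library left out it ran from 0.0198 to 0.16. None passed the limma threshold, and 0 were at an unadjusted limma p under 0.05, against 3.38% of all genes. Groups did not overlap in 4 that were higher, or 12.9% against 16.7% of all genes, and in 1 that was lower, or 3.23% against 15.3% of all. Creld2, an ER stress gene, was at 45.9 and 45.1 against 55.9 and 71.8 RPKM. Dnajc10, an ER reductase gene, stood at 59.7 and 47.9 against 38.5 and 36.7 RPKM, and the most abundant, Ppib, at 351 and 277 against 279 and 389 RPKM.

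**Figure D5:**
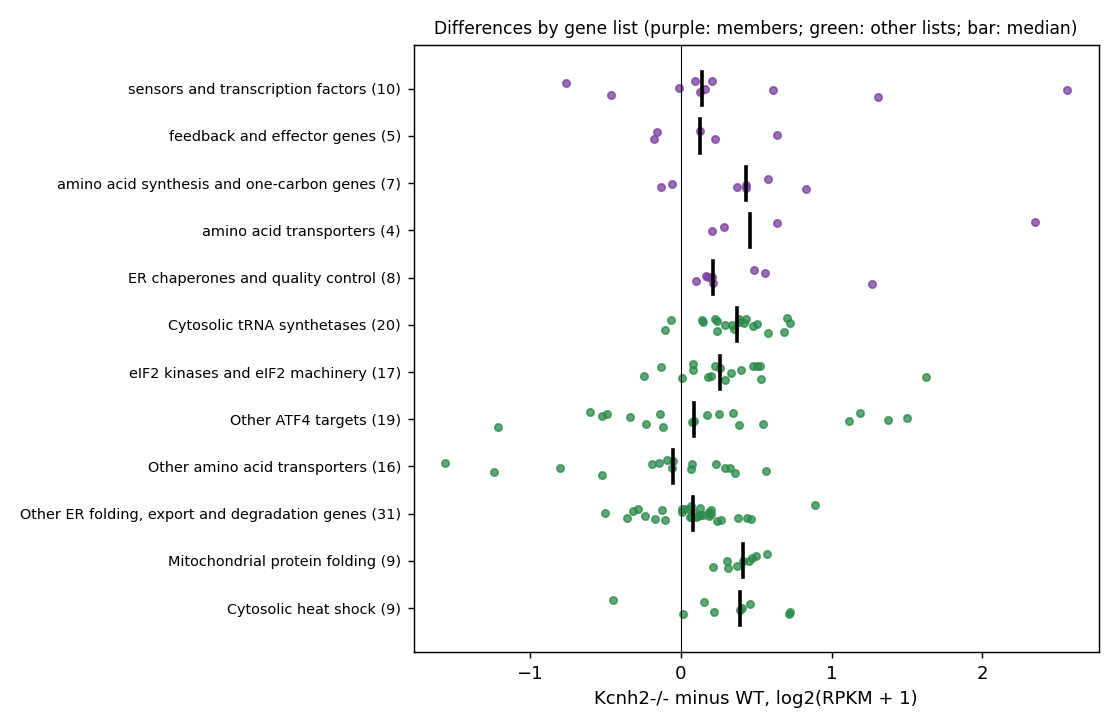
Difference in log2(RPKM + 1), Kcnh2-/- minus WT, of each tested gene, 1 row per list with its number of genes, purple for the members by role and green for the other lists, and a black bar at the median. The tRNA synthetase points cluster around 0.37 (0.15 under quantile normalization), whereas the ATF4 targets and transporters spread to both sides of 0.

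Marker levels of several cell types differed between libraries, both within and between the genotypes. Summed over 7 markers, pluripotent epiblast genes were at 555 and 1838 RPKM in the WT libraries and 1504 and 2367 in the Kcnh2-/- libraries. Visceral endoderm genes, which mark a secretory cell type, summed over 11 markers to 104 and 16.5 against 21.3 and 2.67 RPKM. Of these, Afp, Apob, Hnf4a, Cubn and Apoa1 were under 1 RPKM in every library. The largest parts of the sum in WT replicate 1 were Foxa2, Ttr and Sox17, at 38.3, 30.9 and 20.8 RPKM. Cardiomyocyte genes summed over 7 markers to 677 and 43.4 against 75.5 and 8.62 RPKM, mostly from Actc1 and Tnnc1 (310 and 349 RPKM in WT replicate 1). Myh6, Nkx2-5 and Ryr2 were under 1 RPKM in every library, and Myh7 reached 1.01. Germ cell genes summed over 4 markers to 35.6 and 228 against 237 and 501 RPKM. Dppa3 was the largest part in every library (26.1 and 191 against 117 and 393). Its listed locus on chromosome 4 is also that of the epiblast marker Nanog. Trophoblast genes summed over 7 markers to 1911 and 437 against 829 and 334 RPKM, mostly from the keratin genes Krt8 and Krt18. Cdx2, Elf5 and Hand1 reached at most 2.11 RPKM. Tfap2c was at 2.26 and 20.9 against 13.9 and 20.4 RPKM. Its fitted log2 difference was positive (1.08), and those of Krt7, Krt8 and Krt18 were negative. Fibroblast, neural and blood markers summed to between 0.480 and 45.4 RPKM in every library. No marker of these lists was at 0 in all 4 libraries, and 0 of their tested genes passed the limma threshold. At an unadjusted limma p under 0.05 there were 2 of the 4 tested germ cell genes and 1 of the 2 tested blood genes, the X-linked Gata1. The other marker lists had none, and of all genes tested 3.38% were under 0.05. Pou5f1 carried most of the epiblast sum in 3 of the libraries, at 273 and 1203 RPKM in the WT libraries and 1043 and 1679 in the Kcnh2-/- libraries. Other epiblast genes differed the other way, with Lin28a at 196 and 220 against 168 and 101 RPKM and Sox2 at 33.9 and 47.8 against 18.1 and 43.8. The epiblast list's median difference was 0.75, and -0.76 without WT replicate 1 and -0.31 without Kcnh2-/- replicate 2. In bulk libraries fewer cells of a type and less RNA per cell cannot be told apart, and the part of these marker levels in the values of Slc7a3, Cebpb and the other members was not tested.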

How the data were processed

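Total RNA of 4 libraries was depleted of ribosomal RNA and sequenced as paired reads of 100 bases from strand-marking libraries, per the labels' protocols. TopHat2 2.0.13, Cufflinks 2.2.1 and the build rn6 are named in the submitters' processing notes, with the annotation not given in the sources used here. Each library has 1 table of RPKM, deposited by the authors without read counts.

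Differences were fitted with limma 3.58.1 (R 4.3.3), variance trend on, two-sided and without a replicate term. The fit used log2(RPKM + 1) of the 12355 genes with at least 1 RPKM in 2 or more libraries. The log2(RPKM + 1) scale understates changes of low genes. Protein-coding genes (10850 tested) were picked through RefSeq symbols and synonyms (GRCr8, names only), and chromosome ratios used those at a mean of 5 RPKM or more, without a pseudocount. Every member is named. Of the other pathway lists, the 2 tested genes of smallest p and the most abundant one are named. Mars, Eif2ak1, Snx12 and Tex11 were chosen after their values were seen. Cell type markers are given as sums, and the single markers named beside them were chosen after their values were seen. The members and lists were chosen with earlier results of these data known. Alternatives covered pseudocount, filter, scaling, variance model, a replicate block, gene set, arm definition and each library left out. Python 3.11.15 with pandas 2.3.3 made the tables.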

Additional observations from a re-analysis of the deposited data

How the results depend on the processing

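With the replicate number as a block limma called 28 genes (14 higher and 14 lower) and 0 members. The labels do not say that the numbers pair the libraries. Replicate 2 minus 1 in WT and in Kcnh2-/- correlated across genes at r = 0.38 over all tested and 0.58 over protein-coding genes, which are not independent replicates. With the block and protein-coding genes alone limma called 82 genes and 2 members, Cebpb and Slc7a3 (limma adjusted p = 0.0120 and 0.00349), against 0.525% of genes called higher. Limma called 3 genes with the filter at a mean of 5 RPKM, 3 without the variance trend, 3 over protein-coding genes alone, 1 without a filter and 1 outside chromosomes 3, 13, 16, X and Y, with 0 members in each. The remaining alternatives kept the count of genes within 1.5 times of 14, but not its split, with 9 higher and 3 lower without Kcnh2-/- replicate 1.

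The amino acid arm's median was 0.40 under quantile normalization and ran from 0.42 to 0.87 with a library left out. The ER chaperone median was -0.077 and ran from 0.096 to 0.42. The difference between arms was 0.40 under quantile normalization, 0.36 with both wider arms, -0.085 without those chromosomes and, added after the data were seen, -0.15 without Slc7a3. Of 500 member values under alternatives, 469 kept direction and call, 2 gained a call and 29 changed sign, in 18 members. A change of filter, variance model, replicate block or gene set leaves a gene's fitted difference as it was. In those alternatives no sign could change, only the call, so the count of 469 does not measure how steady the signs were. Under quantile normalization the signs of Atf4 (-0.17), Hspa5 (-0.11), Hsp90b1 (-0.21), Pdia4 (-0.046) and Calr (-0.13) turned, and under median-of-ratios scaling that of Cebpg (0.0015). With a library left out the log2 difference ran from -0.032 to 0.36 for Eif2ak3, -0.049 to 0.24 for Ern1, -0.67 to 1.09 for Xbp1, -0.099 to 0.35 for Atf4, -0.011 to 1.23 for Atf5, -0.078 to 0.062 for Cebpg, -0.52 to 0.20 for Ppp1r15a and -0.45 to 0.096 for Chac1. It ran from -1.02 to 1.29 for Ddit4, -0.26 to 0.72 for Vldlr, -0.26 to 0.15 for Asns, -0.75 to 0.49 for Pycr1, -0.57 to 0.99 for Slc7a1, -0.091 to 0.52 for Pdia4, -0.18 to 0.55 for Calr and -0.18 to 0.52 for Dnajb9. A library left alone in its group was assumed to vary like the other group. The cause of these changes was not tested, and the unknown depth gives no counting error.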

Other observations

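Protein folding genes outside the ER had mostly positive differences, Kcnh2-/- minus WT. All 9 mitochondrial chaperone and protease genes had a positive fitted difference (median 0.42), and in 5 of them both Kcnh2-/- libraries stood above both WT libraries, as in 16.7% of the genes tested. Under quantile normalization 7 of the 9 were positive, with a median of 0.21, and 2 had both Kcnh2-/- libraries above both WT libraries (22.2% against 15.0% of all genes). Clpx, a subunit of the mitochondrial ClpXP protease, was at 29.4 and 34.3 RPKM in the WT libraries and 40.2 and 56.7 in the Kcnh2-/- libraries. The protease gene Lonp1 was at 74.3 and 103 against 119 and 124 RPKM. The most abundant, the chaperonin gene Hspe1, was at 1302 and 2634 against 1557 and 4407 RPKM and split by replicate number. Of the 11 listed cytosolic heat shock genes 9 were tested and 8 of these were positive (median 0.39, and 0.10 with 6 positive under quantile normalization). Without WT replicate 1 the medians were 0.24 for the mitochondrial list, with 7 of 9 positive, and 0.21 for the heat shock list, with 5 of 9 positive. Hsp90aa1 was at 203 and 245 against 363 and 374 RPKM, Dnajb1 at 30.5 and 28.3 against 34.7 and 47.9, and Hspa8 at 1943 and 1188 against 2586 and 1544 RPKM. None of these genes passed the limma threshold, and 0 were at an unadjusted limma p under 0.05, against 3.38% of all genes.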
